A study of Mus musculus with 8 samples.

Results

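Rpl13a, Tbp and Nono were read by 3 of the 15 probes that the scanner files name by a RefSeq accession, among 60915 probes per array. Each member has 1 probe named in this way, printed 20 times on every array, so that a gene is read here by 20 spots per sample. Other probes of these genes among those without a gene name could not be recognized. The 8 samples were normal salivary gland from 2 nontransgenic littermates (N1, N2), tumor-adjacent salivary gland (NAT1, NAT2), and salivary gland tumors (T1 to T4), 1 array each. The tumors arose in mCre-CM(+) mice, which carry a Cre-dependent CRTC1-MAML2 fusion transgene and MMTV-Cre, a Cre line active in ductal cells of the salivary gland. The littermates, mCre-CM(–), carry MMTV-Cre without the fusion transgene. NAT1 and T1 came from 1 mouse, NAT2 and T2 from another, and T3 and T4 from separate mice. Ages are not given for these samples in the sources used here. The sample labels of NAT2 and T2 conflict in their source descriptions, and both were grouped by title and tissue. The main values are also given below without each of them.

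Rpl13a encodes a protein of the large ribosomal subunit, and Tbp encodes the TATA-binding protein, a subunit of TFIID that takes part in transcription by each of the nuclear RNA polymerases. Nono encodes an RNA- and DNA-binding protein of paraspeckles, nuclear bodies built on a long noncoding RNA, and it is known to bind CRTC coactivators at CREB-regulated genes. CRTC1-MAML2 joins the CREB-binding part of CRTC1 to the transactivation domain of MAML2. Genes such as Rpl13a and Tbp are often used as reference genes, on the assumption that their RNA varies little between samples.

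The genes lie on mouse chromosomes 7, 17 and X. In GRCm38.p6, Rpl13a spans chr7:45125563-45128745 on the minus strand, Tbp spans chr17:15499888-15517427 on the plus strand, and Nono spans chrX:101429560-101448593 on the plus strand. Since the fusion acts through CREB, which binds the cAMP response element (CRE), the sequence just before each gene is shown, from RefSeq and with the build given, 5′ to 3′ on the strand of the gene. Capitals mark a match, on either strand, to the CRE (TGACGTCA), its core (TGACG), the TATA box (TATAAA), the CCAAT box (CCAAT), the GC box (GGGCGG), E2F (TTTCGCGC or TTTGGCGC), ETS (CCGGAAG) or YY1 (AAGATGG) motif.
Rpl13a, chr7:45128746-45128995, minus strand: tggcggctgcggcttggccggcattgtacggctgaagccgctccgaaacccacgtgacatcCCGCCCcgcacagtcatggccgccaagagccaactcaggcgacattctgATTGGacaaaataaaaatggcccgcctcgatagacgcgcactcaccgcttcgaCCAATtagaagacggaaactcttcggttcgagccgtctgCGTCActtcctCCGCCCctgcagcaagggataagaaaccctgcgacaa
Tbp, chr17:15499638-15499887, plus strand: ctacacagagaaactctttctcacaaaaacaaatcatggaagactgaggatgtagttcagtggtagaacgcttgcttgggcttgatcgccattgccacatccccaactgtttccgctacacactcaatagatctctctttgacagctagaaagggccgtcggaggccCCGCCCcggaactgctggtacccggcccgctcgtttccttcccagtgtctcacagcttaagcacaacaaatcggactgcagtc
Nono, chrX:101429401-101429559, plus strand: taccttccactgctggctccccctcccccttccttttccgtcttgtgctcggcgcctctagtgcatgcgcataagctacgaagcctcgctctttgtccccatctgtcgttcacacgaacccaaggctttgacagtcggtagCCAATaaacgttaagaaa

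The whole 300-base windows, which run on past the gene start, held no full CRE, TATA box, E2F or ETS match in any of the 3 genes. The core of the CRE, contained in the full CRE, was found 48 bases before the start of Rpl13a and at 2 places after the start of Tbp, and in 20.8% of the 32851 windows of the table. Rpl13a had 2 CCAAT boxes, 140 and 87 bases before the gene start, and 2 GC boxes, at 189 and 37 bases. Tbp had 1 GC box, 83 bases before the start, and Nono had a CCAAT box 18 bases before the start and another after it. CCAAT boxes were present in 37.4% of all windows and GC boxes in 35.7%. Rpl13a also had a YY1 match after its start, a motif found in 6.34% of windows. These matches describe the letters and not a site in use, and no match says only that the letters are not in the window.

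Signals were analyzed as log2 intensity, averaged over the spots of a probe, minus the 75th percentile of the array, and are called scaled log2 values here. A value of 0 is thus the 75th percentile of all probes on that array. The percentile was itself unequal between the groups before scaling, at 6.68 and 7.13 in N, 7.48 and 7.56 in NAT, and 7.73 to 8.42 in T. All 20 spots of each member were well above background on all 8 arrays, and no spot was saturated. T, NAT and N were compared with limma, and a probe was called at a fold change of at least 2 and a Benjamini-Hochberg FDR of at most 0.05 over the 47175 probes tested. In T versus N, 48.6% of the probes tested were called, 27.5% higher and 21.0% lower in T. In T versus NAT, 36.5% were called, 20.6% higher and 15.9% lower. Without scaling, the share of higher calls moved from 56.7% to 86.2% of all calls in T versus N and from 56.4% to 77.9% in T versus NAT, and scaling to the 12 other named probes gave 14.9% and 15.1%. In NAT versus N, limma called 0% of the probes, and the methods' t-test also called 0 after adjustment. By limma, 1994 probes (4.23%) had an unadjusted p under 0.05, less than the share that this threshold passes on average when no probe differs. Without NAT2, limma called 7848 probes in T versus NAT, in place of 17198, and 161 in NAT versus N.

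Rpl13a, the ribosomal protein gene, was higher in T than in N and NAT. Its scaled log2 values were 3.38 and 3.45 in N, 5.61 and 3.78 in NAT, and 8.20, 7.52, 8.09 and 8.16 in T1 to T4. The lowest tumor lay 1.92 above the highest other array, NAT1. Such a separation, each T array above every N and NAT array, held for 28.1% of the probes tested and is common on these arrays. The change was 4.58 on the log2 scale (SE 0.49, 23.9-fold, FDR = 0.000263 by limma) against N and 3.30 (SE 0.49, 9.86-fold, FDR = 0.00179) against NAT. In T versus N this change exceeded that of 98.3% of the probes tested, whose median was 0.29, and in T versus NAT that of 97.0%, with a median of 0.24. Without T2 the change against N was 4.74 and the change against NAT 3.46. Without NAT2 the change against NAT was 2.39 (FDR = 0.00952 by limma), and without NAT1 it was 4.22, both past the cutoff.

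The 2 NAT arrays were far apart for Rpl13a. Of the distance between the N and T means, NAT1 had covered 47.9% and NAT2 7.94%. NAT exceeded N by 1.28 (SE 0.56), which did not pass the cutoff (FDR = 0.878 by limma). This value was 2.19 without NAT2 and 0.36 without NAT1, neither of which passed, so the size of the NAT difference rests on NAT1. Before scaling, the spread among tumors was small, with log2 intensities of 16.14, 15.94, 16.14 and 15.89 in T1 to T4, a 1.18-fold range.

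Tbp, the gene of the TATA-binding protein, was also higher in T. Its scaled log2 values were -0.50 and -0.06 in N, 0.33 and 0.08 in NAT, and 2.01, 2.05, 1.80 and 1.53 in T1 to T4. The lowest tumor, T4, lay 1.19 above NAT1, the highest other array. The change was 2.13 (SE 0.29, 4.37-fold, FDR = 0.000759 by limma) against N and 1.64 (SE 0.29, 3.11-fold, FDR = 0.00388) against NAT. These changes exceeded those of 85.4% and 84.1% of the probes tested. Without T2 they were 2.06 and 1.57, and without NAT2 the change against NAT was 1.51 (FDR = 0.0373 by limma). Tbp in NAT exceeded N by 0.49 (SE 0.34, FDR = 0.878 by limma), which did not pass the cutoff. This difference was 0.27 without N1, 0.70 without N2, 0.36 without NAT1 and 0.61 without NAT2, and none of these passed. It was 1.103 without scaling and 0.14 with the 12 other named probes as scale, again with no call. NAT1 and NAT2 had covered 28.9% and 16.9% of the distance between N and T. The Tbp call depended on the scaling. With the arrays scaled to the mean of the 12 other named probes, 7 of which were themselves called higher in T versus N and none lower, the change fell to 0.70 against N and 0.56 against NAT and lost the call in both. Without scaling it was 3.26 against N and 2.15 against NAT, with the call in both.

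Nono, the paraspeckle protein gene, had no call in any comparison. Its scaled log2 values were 6.26 and 6.55 in N, 6.10 and 6.48 in NAT, and 6.07, 5.34, 5.27 and 5.11 in T1 to T4. All tumors lay below all N and NAT arrays, as for 22.3% of the probes tested, with T1 only 0.03 below NAT1. The change was -0.96 (SE 0.34, FDR = 0.0463 by limma) against N, short of the 2-fold cutoff, and -0.84 (SE 0.34, FDR = 0.0858) against NAT. NAT differed from N by -0.11 (SE 0.40, 95% CI -1.03 to 0.80), within the spread between arrays. Without T1, the change passed the cutoff in both comparisons, at -1.16 (FDR = 0.0197 by limma) and -1.05 (FDR = 0.0398), and without T2 it was -0.92 and -0.81 with no call. Without NAT2 the change against NAT was -0.65 and NAT differed from N by -0.31.

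**Figure D1:**
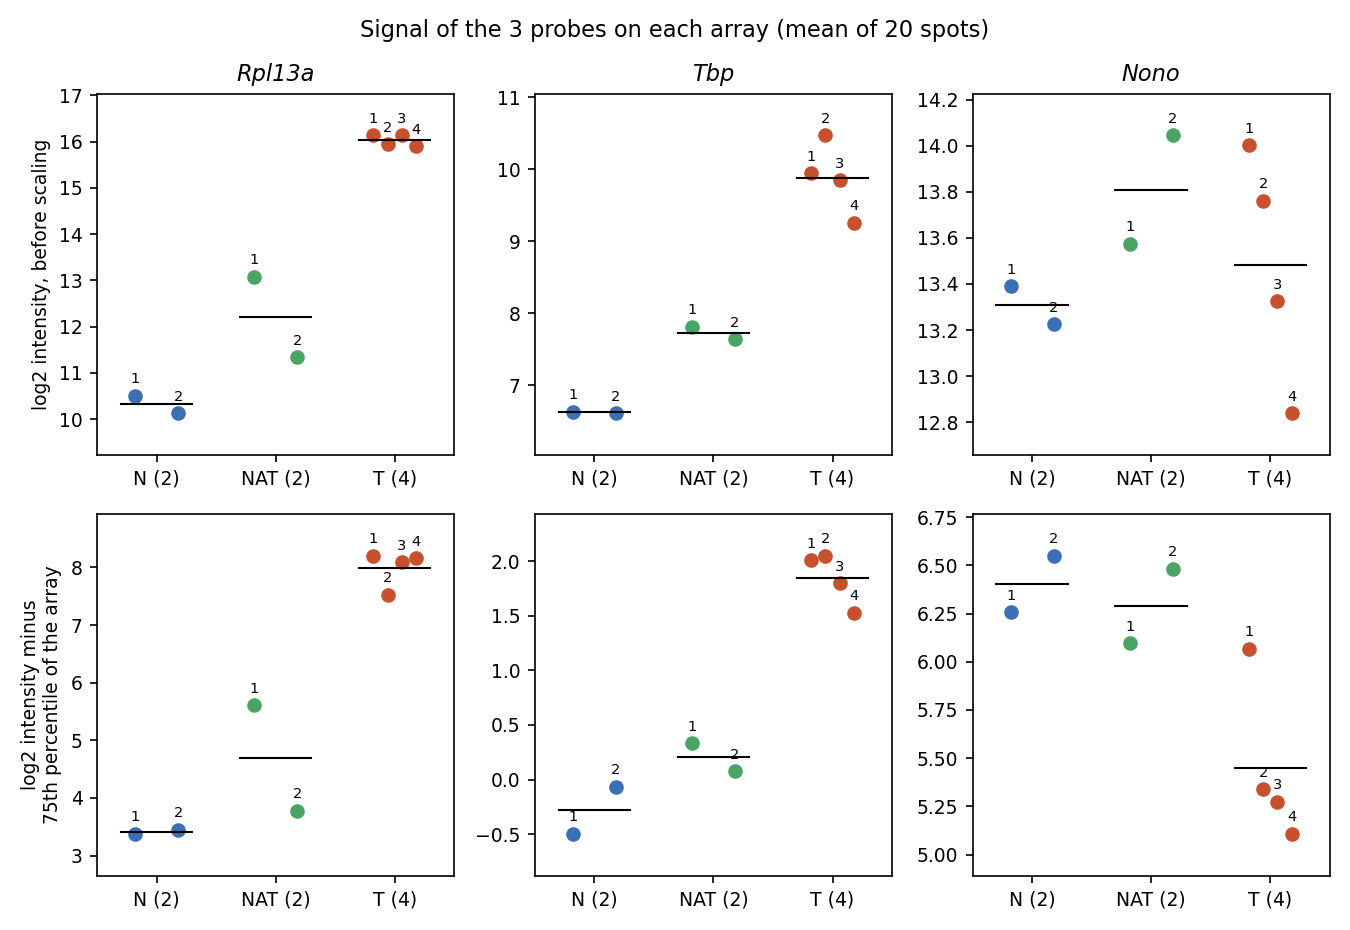
Log2 intensity before scaling (top) and after subtraction of the 75th percentile of the array (bottom) for Rpl13a, Tbp and Nono, by group. Points are arrays, marked with their replicate number, and lines are group means. Each point is the mean of the 20 spots of a probe, without those flagged as outliers. The T arrays lie above all others for Rpl13a and Tbp in both rows. For Nono the groups overlap before scaling, and the T arrays lie lowest after it.

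The direction of Nono depended on the scaling. Before scaling, its log2 intensities were 13.39 and 13.22 in N, 13.57 and 14.05 in NAT, and 14.00, 13.76, 13.32 and 12.84 in T1 to T4. The groups overlapped, and T minus N was 0.17 (SE 0.39) in the unscaled fit and T minus NAT -0.33. Quantile normalization gave a call lower in T against both N (-1.45, FDR = 0.0148 by limma) and NAT (-1.21, FDR = 0.0401). Relative to the median change of all tested probes, which was 0.29 in T versus N with the 75th percentile, 1.42 without scaling and -1.14 with the 12 other named probes, Nono lay at -1.25 in T versus N, a value that no shift of a whole array can alter. It lay at -1.56 with quantile normalization and -0.28 with normexp background correction, which change probes unequally. Rpl13a lay 4.29, 4.06 and 5.21 above the median under these same 3 settings, and Tbp 1.84, 1.97 and 2.21.

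**Figure D2:**
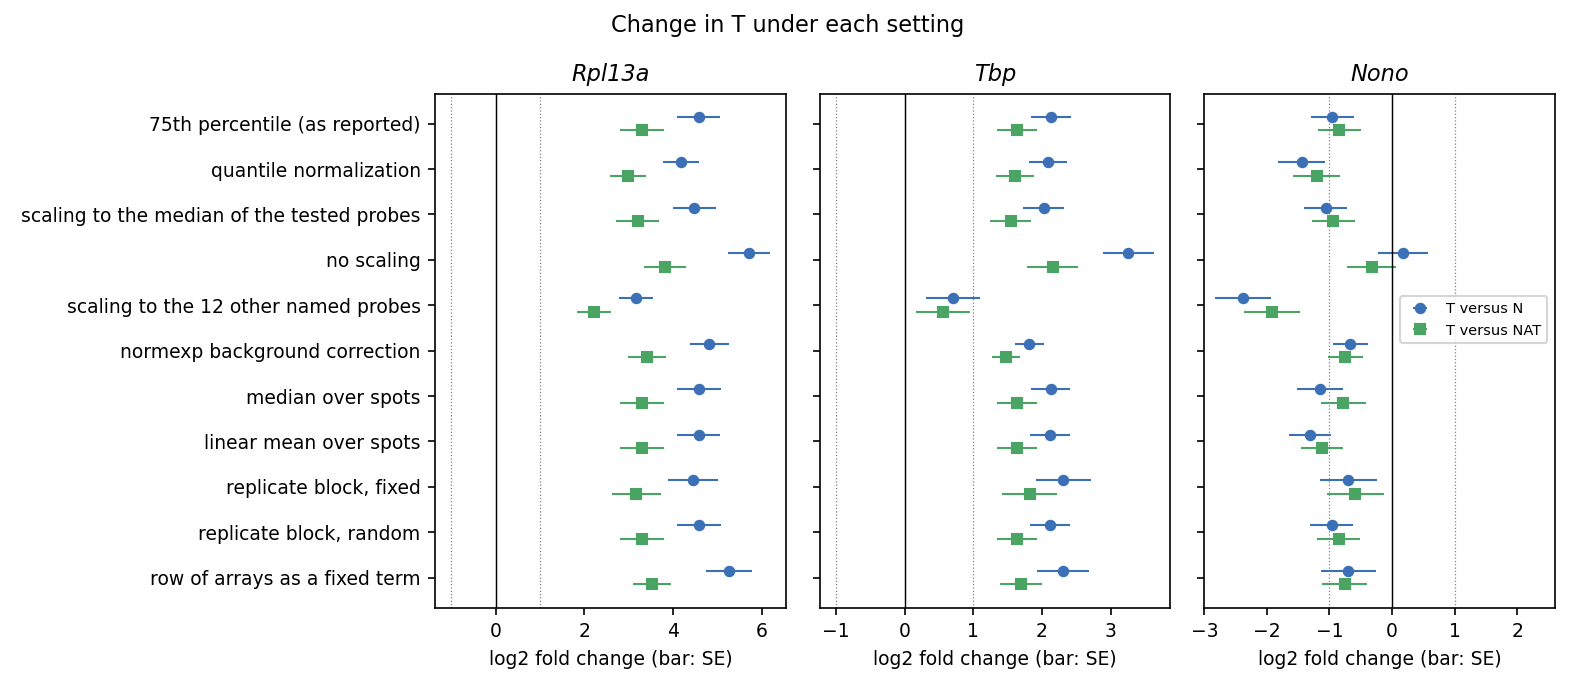
Log2 fold change of each gene in T versus N (circles) and T versus NAT (squares) under 11 settings, with bars of 1 SE. Dotted lines mark a 2-fold change. Rpl13a lies above the 2-fold line under each setting shown, Tbp falls short of it only with the 12 other named probes, and Nono crosses 0 in T versus N without scaling.

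The 20 spots of the Nono probe, which bear the same probe name, disagreed with one another in N and NAT but not in T. Before scaling, the brightest of them exceeded the dimmest 10.6-fold on N1, 7.90-fold on N2, 8.57-fold on NAT1 and 8.48-fold on NAT2. The same ratio was 1.30, 1.21, 1.24 and 1.18 on T1 to T4. The SD over the 20 spots was 0.92 to 1.26 log2 units on the N and NAT arrays and 0.05 to 0.10 on the T arrays. For Rpl13a, the SD was 0.06 to 0.23 on N and NAT and 0.04 to 0.14 on T. For Tbp it was 0.07 to 0.15 on N and NAT and 0.07 to 0.09 on T. The SDs of the Nono spots thus did not overlap between T and the other arrays, whereas those of Rpl13a and Tbp did. These SDs hold all spots, including those that the scanner software flagged as outliers, which the averaged values leave out. Without the flagged spots, every SD in N and NAT exceeded every SD in T for Nono and for 2 of the 12 other named probes, each of them also printed 20 times. These were Hsp90ab1 (0.08 to 0.40 against 0.03 to 0.05) and G6pd2, a glucose-6-phosphate dehydrogenase gene (0.13 to 0.22 against 0.04 to 0.12), both named here after their values were seen. With the flagged spots Actb was such a probe too. The mean SD of N and NAT over that of T, without flagged spots, was 12.39 for Nono, 4.56 for Hsp90ab1 and 2.14 for G6pd2.

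**Figure D3:**
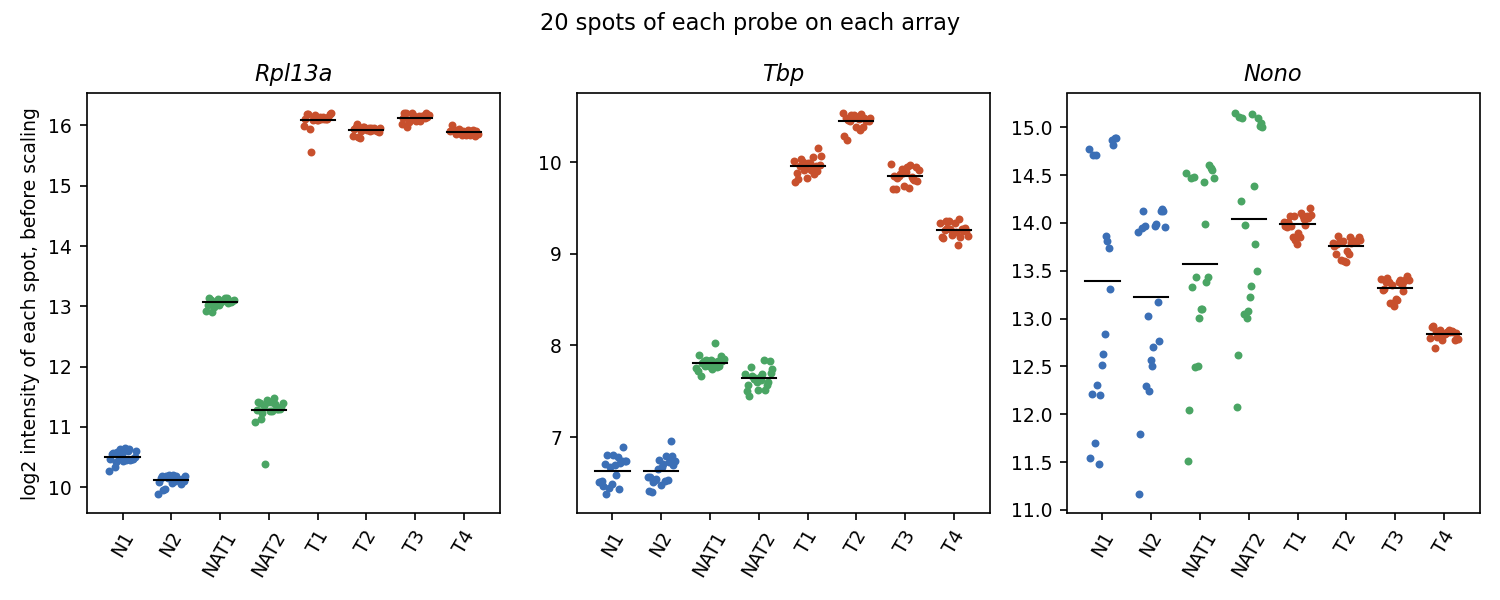
Log2 intensity before scaling of each of the 20 spots of the Rpl13a, Tbp and Nono probes on the 8 arrays, outlier-flagged spots included. Points are spots and lines their mean. The Nono spots spread over about 3 log2 units on N1 to NAT2 (2.98 to 3.41) and lie within 0.23 to 0.37 on T1 to T4.

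The order of the Nono spots was largely shared between the N and NAT arrays, with exceptions. Over the 20 spots, the log2 intensities of a pair of N or NAT arrays correlated at 0.75 to 0.98, with a median of 0.91 over 6 pairs. Between these arrays and T1 to T3 the correlation was 0.47 to 0.76, on a far smaller scale of differences, and with T4 it was -0.52 to -0.41. The points share their place on the array and their probe, so these correlations are descriptions. The dimmest spot on N2, NAT1 and NAT2 was the one in row 15 and column 97, with log2 intensities of 11.17, 11.51 and 12.07, and on N1 it was the one in row 108 and column 73, at 11.48. The spot in row 65 and column 69 was dim on N1, at 11.70, but among the brightest on N2, at 14.12, and had 13.33 and 14.23 on NAT1 and NAT2. The row 108 spot had 13.03 on N2, 13.43 on NAT1 and 13.97 on NAT2. At the row 15 spot, T1 to T4 had 13.97, 13.76, 13.30 and 12.91.

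The brightness of the Nono spots differed between parts of the array. The array has 384 rows and 164 columns. Of the 20 Nono spots, 7 lie in the quadrant of rows up to 192 and columns above 82, and their mean log2 intensity was 12.32 and 12.18 on N1 and N2, 12.54 and 12.91 on NAT1 and NAT2, and 13.88, 13.66, 13.21 and 12.85 on T1 to T4. The 4 spots in rows above 192 and columns up to 82 had 14.60 and 14.10 on N1 and N2, 14.44 and 14.88 on NAT1 and NAT2, and 14.09, 13.81, 13.42 and 12.84 on T1 to T4. In the first of these quadrants both N arrays lay below all T arrays, and in the other all N and NAT arrays lay above all T arrays, N2 only just above T1. The 6 spots in rows up to 192 and columns up to 82 ran from 11.48 to 14.77 on N1 and from 13.03 to 14.12 on N2. The 3 spots in rows above 192 and columns above 82 ran from 13.31 to 14.89 on N1 and from 12.77 to 13.95 on N2. At the brighter spots the signal levelled out, with 7 spots on N1, 10 on N2, 8 on NAT1 and 8 on NAT2 within 0.3 log2 units of the brightest.

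The group difference of Nono depended on the spot. N and NAT minus T, before scaling, ran from -1.91 to 1.14 log2 units over the 20 spots, with 10 spots higher and 10 lower in N and NAT. After scaling, T was lower on average at 16 of the 20 spots and higher at 4. In the fit on scaled values with each spot entered as a probe of its own, T versus N ranged from -2.10 to 1.00, with 10 of the 20 spots called lower in T and 0 called higher. T versus NAT ranged from -1.85 to 1.18, with 9 spots called lower and 1 called higher. None of the 7 spots in rows up to 192 and columns above 82 was called in T versus N, where their median was -0.06, while the 4 spots in rows above 192 and columns up to 82 were all called lower, with a median of -2.08. All 20 spots of Rpl13a were called higher in T versus N, between 4.46 and 4.72, and all 20 spots of Tbp, between 1.87 and 2.31. Spots of 1 probe share their samples and are not replicates of a condition.

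**Figure D4:**
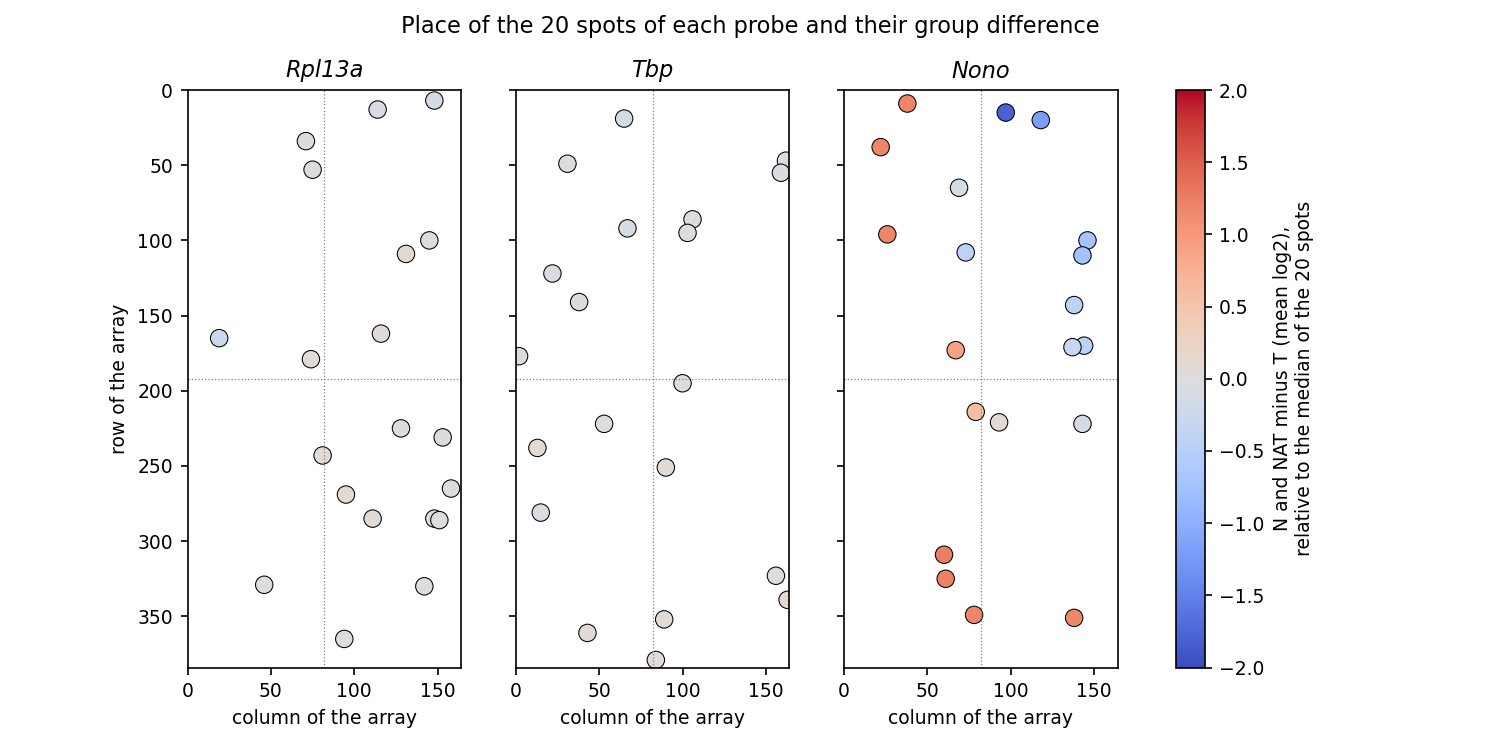
Place of the 20 spots of each probe on the array by row and column, colored by N and NAT minus T (mean log2 intensity before scaling) relative to the median of the 20 spots. Dotted lines mark the middle row and column. The Nono spots run from blue at the upper right to red at the left and bottom, from -1.91 to 1.14 before the median is subtracted, whereas the Rpl13a and Tbp spots differ by at most 0.37 and 0.25.

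Over the spots that were flagged on none of the arrays, the range of N and NAT minus T was 3.05 for Nono (19 spots), 0.17 for Rpl13a and 0.21 for Tbp (14 spots each). For the other named probes it was 0.094 to 0.57, apart from Ldhal6b at 1.34, a probe that was dim, with 1 of its 20 spots well above background on N1, N2 and NAT2. With flagged spots kept, the range of G6pd2 was 2.40 in place of 0.25, and its highest spot on NAT1 lay at 13.38 against a median of 7.78. On the slide, N1, NAT1, T1 and N2 shared a row of arrays, and NAT2, T2, T3 and T4 shared the other. With the row of arrays as a term in the fit, T versus N was 5.25 for Rpl13a, 2.30 for Tbp and -0.70 for Nono, with the same calls. Both N arrays share their row with T1 alone among the tumors, so this fit separates group from row only weakly. Averaging the Nono spots by their median gave a call lower in T versus N (-1.15, FDR = 0.0285 by limma), and averaging them on the linear scale gave calls against N (-1.31) and NAT (-1.12). The call for Nono therefore changed with how its spots were combined, and the cause of the spread between spots was not tested.

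Differences between 2 members on the same array do not depend on the scaling of that array, and only their change between groups is read here. For Nono these differences use the mean of its spots without those flagged as outliers, and these spots were unequal on the N and NAT arrays. Rpl13a minus Tbp, in log2 units, was 3.87 and 3.52 in N, 5.27 and 3.70 in NAT, and 6.19, 5.47, 6.29 and 6.64 in T1 to T4. The T mean exceeded the mean of the other 4 arrays by 2.06 (SE 0.47), so the difference between the 2 genes widened in T. Rpl13a minus Nono rose by 4.84 (SE 0.65), from -3.10 to -0.49 over the N and NAT arrays to 2.13 to 3.06 over the T arrays. Tbp minus Nono rose by 2.78 (SE 0.27), from -6.76 to -5.76 over the N and NAT arrays to -4.06 to -3.29 in T. The T arrays did not overlap the others in any of the 3 pairs, of which Rpl13a minus Nono is the sum of the other 2. Among single probes tested, all T arrays lay above all others for 28.1% and below them for 22.3%. No such share was computed for pairs of probes. The exact two-sided permutation test of 4 T arrays against 4 N and NAT arrays gave p = 0.0286 for each pair, the smallest p that this design allows, and 0.0286 after adjustment over the 3 pairs. The test takes the 8 arrays as exchangeable, although NAT1 and T1, and NAT2 and T2, are tissues of the same mouse, and it pools N with NAT. For Rpl13a minus Tbp the exact p was 0.0571 when any 1 of the T arrays was left out, with a difference of 2.28 without T2. Without T2 the other differences were 4.96 and 2.68, and without NAT2 the 3 were 1.93, 4.70 and 2.78, each with an exact p of 0.0286 before adjustment. Against N alone or NAT alone, 4 arrays against 2 cannot go below an exact p of 0.0667.

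**Figure D5:**
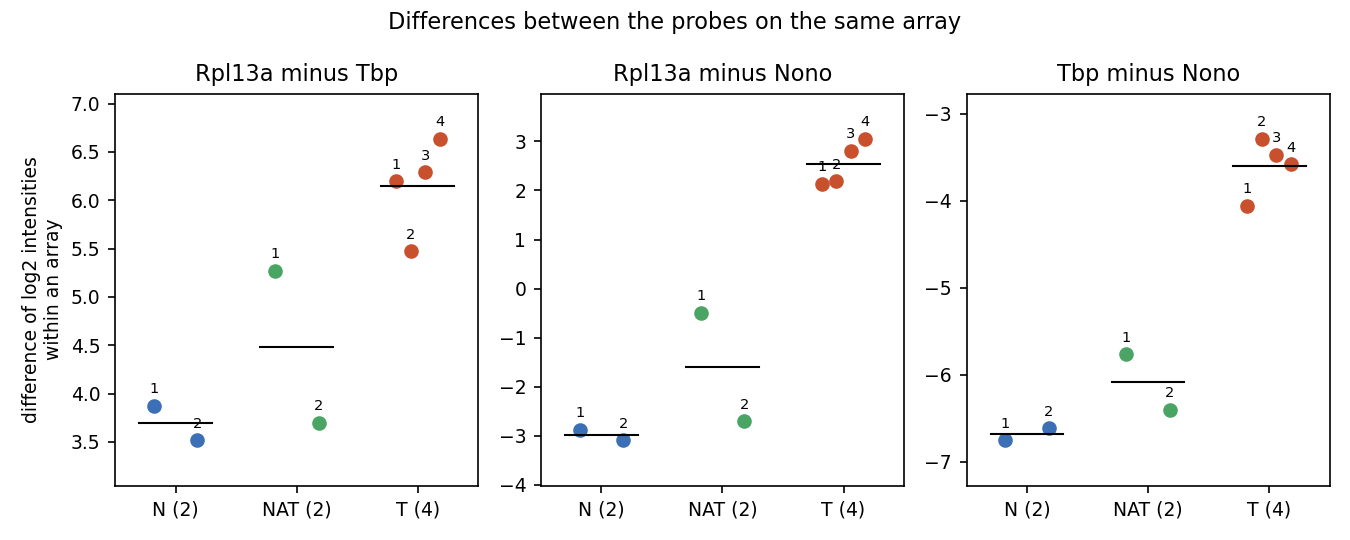
Difference of the log2 intensities of 2 members on the same array, by group. Points are arrays, marked with their replicate number, and lines are group means. The 4 T arrays lie above the 4 N and NAT arrays in each pair, and NAT1 lies nearest to T.

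Among the 12 other named probes, 7 were called higher and 0 lower in T versus N, with a median change of 1.36 and a range of -0.29 to 3.86. These include Ldhal6b, which was near background on both N arrays. In T versus NAT, 5 were called higher and 0 lower, with a median of 0.98. The 3 members had 2 calls higher and 0 lower in each of these comparisons. Over all probes tested, 27.5% were called higher and 21.0% lower in T versus N, and 20.6% and 15.9% in T versus NAT. By the root mean square difference of the scaled values over the 8 arrays, each gene centred on its mean, the named genes nearest to Rpl13a were Gusb, which encodes the lysosomal enzyme β-glucuronidase (0.45), Hsp90ab1, a cytosolic chaperone gene (0.56), and Actb, the β-actin gene (0.82). Nearest to Tbp were Hprt, a purine salvage enzyme gene (0.33), Actb (0.49) and Ldhal6b, a lactate dehydrogenase gene (0.50). Since Ldhal6b was near background on N1, N2 and NAT2, its distance and its place in this order are uncertain. Nearest to Nono were B2m, the gene of the MHC class I light chain (0.51), Tfrc, the transferrin receptor gene (0.66), and Gk, the glycerol kinase gene (0.68). Rpl13a and Tbp lay 1.18 apart on this measure, and Nono lay 2.55 from Rpl13a and 1.43 from Tbp.

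The array's own 5′ and 3′ control probes moved with the groups as well. The log2 signal of the 5′ GAPDH probe minus that of the 3′ GAPDH probe was -3.07 and -3.58 in N, -2.39 and -2.94 in NAT, and -0.81 to -0.34 in T. For PGK1 it was -7.70 and -8.48 in N, -7.08 and -7.56 in NAT, and -5.78 to -4.45 in T. NAT1, which had the highest Rpl13a and Tbp among the N and NAT arrays, also had the smallest 5′ to 3′ gap among them for both transcripts. The part of this in the changes of Rpl13a, Tbp and Nono was not tested. In bulk tissue, fewer cells of a type and less RNA per cell cannot be told apart. Apart from control probes such as these, the files used here pair no further probes with gene names, so that other ribosomal protein genes, TFIID subunits, partners of Nono and markers of salivary cell types were not analysed here, nor was the labelled tissue checked against its markers.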

How the data were processed

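RNA of 8 mouse salivary samples (2 N, 2 NAT, 4 T), from snap-frozen tissue, was hybridized to one-color Arraystar Mouse LncRNA/mRNA v3.0 arrays on 1 slide, scanned once. The deposited scanner files give linear spot intensity, from which Agilent Feature Extraction 11.0.1.1 had subtracted background, without normalization between arrays. A second deposited file holds log2 values of 42830 probes and was not used for the members. The named probes of the 3 members were not among them (0), and other probes of these genes could not be recognized there. The column medians of that file were near equal, at 6.44 to 6.46, and the method behind them was not determined here. No per-sample column was left unmapped (0).

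After removal of control spots, negative sequences and outlier-flagged spots, log2 intensities were averaged over the spots of a probe, and the 75th percentile of the array over the remaining 60915 probes was subtracted. A probe was tested if it was well above background on 2 or more arrays, which left 47175 for limma 3.58.1 (R 4.3.3). A single model held N, NAT and T, and p-values were adjusted by Benjamini-Hochberg over the probes of each comparison. The number of arrays limits the precision. Differences between members within arrays were tested by exact permutation in Python 3.11.15. The scripts were tested on simulated data. Accessions matched a symbol for 15 of 15 named probes, with gene positions from GRCm38.p6. Promoter windows run from 250 bases before to 50 after the start in the RefSeq table, and matched all 3 members. For Nono that start lies past the annotated gene start, so that 159 bases of its window come before the gene. Distances of motifs are counted from the annotated gene start. The part before the annotated gene start is printed.

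The members and lists were chosen with earlier results of these data known. The genes named are the 3 members and, for each, the 3 of the 12 other named probes nearest to it in the centred scaled values. G6pd2 was named after its values were seen.

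NAT1 and T1, and NAT2 and T2, are tissues of the same mouse, with N1 and N2 as littermates. Over probes, deviations from the group means had a correlation of -0.09 for the NAT1 and T1 pair and -0.25 for NAT2 with T2. N1 with T1 gave 0.02 and N2 with T2 gave 0.08. With 2 arrays in N and in NAT, the deviations of N1 and NAT1 mirror those of N2 and NAT2 (0.15). A fit with the replicate number as a block was run as an alternative. The other alternatives were normexp (offset 50) on the median spot signal, quantile normalization, other scalings, no filter or a stricter one on dim probes, fits to the compared arrays alone, an intensity trend with robust shrinkage, the methods' t-test, an FDR of 0.01, leaving out each array and, chosen after seeing the data, other averages over spots and the row of arrays as a term. Spike-in scaling was not run, since the spike-in probes were dim on every array.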

Additional observations from a re-analysis of the deposited data

Results flagged for a closer look

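Of 12 sets of 4 T arrays examined for a single array standing apart (scaled and unscaled levels, spread over spots, and differences between members), 1 was marked. The scaled log2 value of Rpl13a was 7.52 in T2, against 8.09 to 8.20 in the other tumors, a gap of 0.83 of the range of the group. Chance marks about 1 in 20 such sets. Before scaling, T2 did not stand apart (15.94, against 15.89 to 16.14), and its 75th percentile, which is subtracted, was the highest of the 8 arrays, at 8.42.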

How the results depend on the processing

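Rpl13a kept its direction and its calls against N and NAT in each of 25 alternatives (3.15 to 5.71 and 2.23 to 4.22), and Tbp in 24 of 25 (1.82 to 3.26 and 1.48 to 2.15), the exception being the 12 other named probes as scale (0.70 against N and 0.56 against NAT). Nono gained a call in T versus N with quantile normalization (-1.45), the median of the tested probes (-1.06), the 12 other named probes (-2.38), the median over spots (-1.15) and the linear mean over spots (-1.31), and turned to 0.17 without scaling. In T versus NAT it gained a call with quantile normalization (-1.21), the 12 other named probes (-1.92) and the linear mean (-1.12). NAT versus N for Nono, never called, turned to 0.077 with normexp, 0.50 without scaling and 0.057 with the row of arrays. Leaving out 1 array gave -1.16 to -0.81, -1.05 to -0.65 and -0.31 to 0.079 for Nono in T versus N, T versus NAT and NAT versus N. The causes were not tested.

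Called probes fell with normexp to 14746 in T versus N, from 22907, and to 10791 in T versus NAT, from 17198. In T versus NAT, the methods' t-test gave 9602 and an FDR of 0.01 gave 9220. Leaving out 1 array gave 16773 to 22996, 7848 to 17461 (lowest without NAT2) and, in NAT versus N, 0 to 161, with 1 without N2, 1 without NAT1 and 161 without NAT2.

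The replicate block changed no call of a member. With it fixed, T versus N was 4.45 for Rpl13a, 2.31 for Tbp and -0.70 for Nono, T versus NAT was 3.17, 1.82 and -0.59, and called probes numbered 18154 in T versus N and 11504 in T versus NAT. T3 and T4, which have no partner, do not add to that fit's difference.

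Against N alone, the differences within arrays were 2.45 (Rpl13a minus Tbp), 5.54 (Rpl13a minus Nono) and 3.08 (Tbp minus Nono), and against NAT alone 1.66, 4.14 and 2.48, each with an exact p of 0.0667, the smallest those sizes allow. Leaving out 1 array gave 1.87 to 2.45, 4.57 to 5.44 and 2.66 to 2.99, and the exact p of Rpl13a minus Tbp rose to 0.0571 when any 1 of the T arrays was left out. The deposited table held no value for the named probes of the members, and the spike-ins could give none.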
